A study of Triticum turgidum with 12 samples.

Results

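A pair of probe sets on the wheat array represents enzymes that make phenolic defense compounds, and their signals are described here in the flag leaf of a pale-green durum wheat mutant. Probe set Ta.8228.1.S1_at stands for agmatine coumaroyl transferase-1 (ACT-1), a name the study took from a barley protein, and probe set TaAffx.6092.1.S1_at stands for naringenin,2-oxoglutarate 3-dioxygenase, named from a maize protein. These 2 of 61290 probe sets were chosen by name from the study's list of probe sets that the mutant (M) induced relative to the wild-type (WT) in well-watered plants, the control conditions. The difference between M and WT under control conditions chose them, so it is given below as values with no test. The comparisons that did not use that difference are water stress against control averaged over both genotypes, and M against WT under water stress, and these were tested.

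The wild-type was the cultivar Borgia, and the mutant was obtained from it with sodium azide, selected for its pale-green leaves, backcrossed to Borgia and selfed. It is a single mutant line, and the mutated gene is not given. Plants grew in a glasshouse, either with the soil kept at its full water capacity (control) or with watering reduced from Zadoks stage 45, which is the boot stage, until anthesis (water stress). Flag leaves of several plants were pooled for each sample at anthesis, and each of the 4 groups (WT control, M control, WT water stress and M water stress) had 3 samples, each on 1 array. The study used a split plot design, with the water treatments on the main plots and the genotypes on the subplots. The sample labels give a replicate number but no main plot. The tests below treat the arrays as independent, so their p-values do not include variation between main plots. The deposited values are MAS5 signals, which are intensities on a linear scale with every array set to the same trimmed mean.

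Agmatine coumaroyl transferase joins a coumaroyl group, carried by coenzyme A, to agmatine, an amine made from arginine. This is the last step to the coumaroylagmatine type of hydroxycinnamic acid amides, and in barley such conjugates are coupled in pairs to hordatines, which inhibit fungi. Naringenin,2-oxoglutarate 3-dioxygenase, also known as flavanone 3-hydroxylase, hydroxylates naringenin to a dihydroflavonol, from which plants make flavonols, anthocyanins and condensed tannins. Both pathways start from coumaroyl-coenzyme A, a product of the phenylpropanoid pathway.

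The study's primers for quantitative RT-PCR are the sequences that tie both probe sets to a transcript, and they are shown because the array annotation used here gives no gene sequence. They are given 5′ to 3′, and the capitals mark the last 5 bases, at which the polymerase starts.
ACT-1 forward: ctgctcatcctgctaccgtcCTTCT
ACT-1 reverse: caagcggagctagtcgagggTGTAG
naringenin dioxygenase forward: caccttcagcgactaccgcaAGTAC
naringenin dioxygenase reverse: tcccaactgctggcaacctaTAACA
All 4 primers were 25 bases long. The ACT-1 pair held 56% and 60% G or C, and the naringenin dioxygenase pair held 56% and 48%. No other probe set on the array belonged to the same array cluster as either one, and whether a probe set of another cluster reads the same transcript was not tested. Durum wheat carries related copies of most genes on its A and B genomes, and a single probe set can read more than 1 of them.

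Across the 12 arrays the median signal was between 50.5 and 66.5 and the 60th percentile between 92.3 and 117, which is the level that a probe set had to exceed in all 3 replicates of at least 1 group to be tested. This left 24590 probe sets. ACT-1 passed through both control groups, whereas naringenin dioxygenase passed through M control alone. A probe set that passes through 1 group alone had to be high there, so passing is no evidence of a difference. The 6 probe sets for the Rubisco small subunit and the light-harvesting protein LHB1B2, markers of green leaf, were above 53.0% or more of the other probe sets on every array.

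ACT-1 had its highest signals in the mutant under control conditions. The signals in M control were 491, 402 and 445, and those in WT control were 222, 244 and 116. All 3 M arrays were above all 3 WT arrays, and WT control replicate 3 was the lowest of the 6. On the log2 scale the means were 8.80 ± 0.14 (SD, n = 3) in M and 7.53 ± 0.58 (SD, n = 3) in WT, a difference of 1.27 (SE 0.35), or 2.41-fold. Without WT control replicate 3 the difference was 0.93.

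Under water stress ACT-1 was low in both genotypes. The signals were 50.4, 88.5 and 92.3 in WT and 48.1, 94.7 and 63.4 in M. All 6 values were below the 60th percentile of their array, and 4 of the 6 were above the array median. The log2 means were 6.22 ± 0.49 in WT water stress and 6.05 ± 0.49 in M water stress (SD, n = 3 each), and the signals of both genotypes overlapped.

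Naringenin dioxygenase also had its highest signals in the mutant under control conditions. The signals in M control were 234, 220 and 331, and in WT control they were 56.7, 50.5 and 69.0. The M values exceeded 70.1% or more of all probe sets on their arrays, whereas the WT values lay close to the array median, between 49.4% and 53.8%. On the log2 scale the means were 8.01 ± 0.32 (SD, n = 3) in M and 5.86 ± 0.23 (SD, n = 3) in WT, a difference of 2.14 (SE 1.03). All 3 WT control values were below the 60th percentile of their array. With these raised to the 60th percentile the M signal was at least 2.61-fold higher (1.38 on the log2 scale), and with 32 added to each signal the log2 difference was 1.68. The SE of 1.03 comes from the spread over all 4 groups and is wide because the stress arrays scattered.

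Under water stress the naringenin dioxygenase signal was low and scattered, above 2.41% to 35.2% of the probe sets on its array. The signals were 2.55, 29.8 and 6.18 in WT and 27.5, 22.2 and 1.99 in M. None of the 6 reached its array median. The log2 SD was 1.80 in WT water stress and 2.10 in M water stress, against 0.23 and 0.32 in the control groups, and the sizes of differences that involve these arrays depend on how such low signals are treated.

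**Figure D1:**
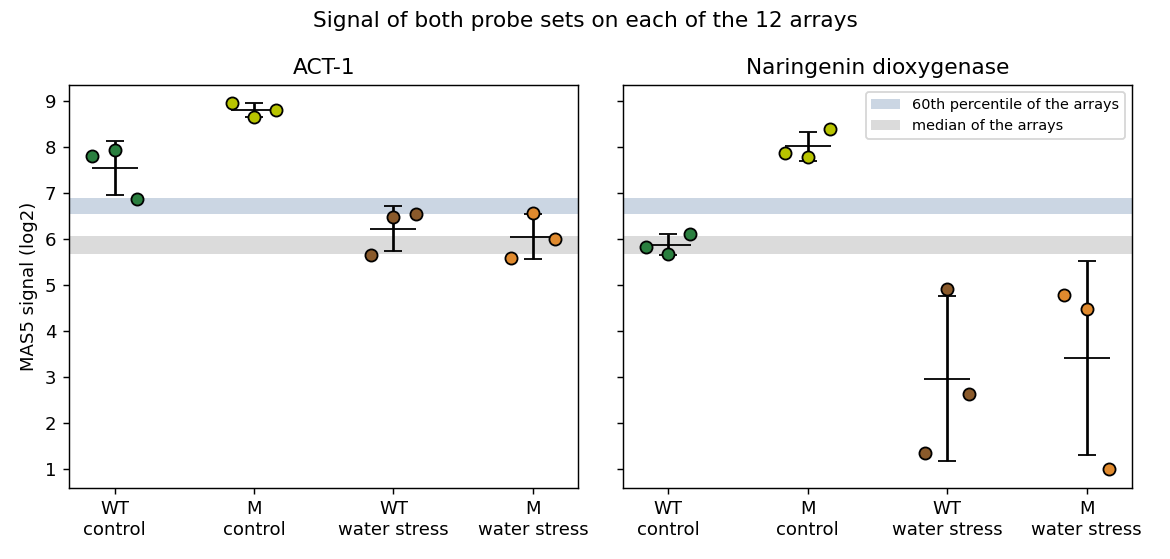
MAS5 signal (log2, vertical axis) of ACT-1 and naringenin dioxygenase on each of the 12 arrays by group; points are arrays, and bars are the mean ± SD of 3 arrays. The bands span the medians (50.5 to 66.5) and 60th percentiles (92.3 to 117) of the arrays on the log2 scale, and all 12 stress values lie below the 60th percentile of their array.

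The order of the group means was M control, WT control, WT water stress and M water stress for ACT-1. For naringenin dioxygenase it was M control, WT control, M water stress and WT water stress. In both orders the last pair, the stress groups, overlapped. Among the first 3 groups the arrays of neighbours did not overlap. The step between the control groups chose the probe sets, and the share of all probe sets separated in this way was not counted, so the separation is only a description.

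Both transcripts had lower signals under water stress than under control conditions when the genotypes were averaged. This comparison weights M and WT equally, so it does not contain the difference between them that chose the probe sets. The filter is not balanced in this way, since both passed it through control groups, and naringenin dioxygenase through M control alone. For ACT-1 the 6 control arrays ranged from 116 to 491 with a median of 323, and the 6 stress arrays from 48.1 to 94.7 with a median of 76.0. The control and stress arrays did not overlap. The difference was −2.03 on the log2 scale (SE 0.25, 95% confidence interval −2.57 to −1.49), a 4.09-fold lower signal, with an adjusted p of 4.39e-05 by limma over all 24590 probe sets.

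For naringenin dioxygenase the control arrays ranged from 50.5 to 331 with a median of 145, and the stress arrays from 1.99 to 29.8 with a median of 14.2. These arrays did not overlap either. The difference was −3.75 on the log2 scale (SE 0.72, 95% confidence interval −5.32 to −2.18), with an adjusted p of 0.00129 by limma, and of 0.00135 by limma with no filter. M control, the only group through which it passed the filter, is part of the control mean. The p-value after the filter is therefore not independent of how the probe set entered the test. Its size is not firm, since all 6 stress values were below their array median. With 32 added to each signal it was −1.83, and with signals below the 60th percentile raised to it −0.62. Without M water stress replicate 3, the array with the lowest value, it was −3.14 with an adjusted p of 0.000736 by limma.

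Over all tested probe sets, 1249 (5.08%) were called lower and 735 (2.99%) higher under water stress, where a call needed an adjusted p under 0.05 and at least a 2-fold difference. In 10.1% of the tested probe sets every stress array was below every control array, as for both enzymes.

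When signals below the 60th percentile of an array were raised to it, the ACT-1 signal was at least 2.77-fold lower under water stress, with an adjusted p of 2.12e-05 by limma. For naringenin dioxygenase the same treatment raised the 3 WT control arrays as well, so the averaged value of −0.62, which is under the 2-fold threshold, is no bound. It comes from M alone (−1.24, against −0.01 in WT), and at this level the response in WT could not be measured.

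The signals were lower in each genotype, although for naringenin dioxygenase both WT groups lay below the 60th percentile of their arrays. The differences are given as values because they share the control arrays that chose the probe sets. ACT-1 differed between water stress and control by −1.31 (SE 0.35) in WT and by −2.75 (SE 0.35) in M on the log2 scale. The signals were 2.48-fold lower in WT and 6.73-fold lower in M, and with low signals raised to the 60th percentile at least 1.88-fold and at least 4.08-fold lower. Naringenin dioxygenase differed by −2.91 (SE 1.03) in WT and by −4.59 (SE 1.03) in M. With low signals raised, its M value was at least 2.36-fold lower, and no fold can be given for WT. Without WT water stress replicate 1 the WT difference was −2.10, and without M water stress replicate 3 the M difference was −3.38. M minus WT of these responses was −1.44 (SE 0.50) for ACT-1 and −1.69 (SE 1.45) for naringenin dioxygenase. When each array was left out in turn these ranged from −1.72 to −1.10 and from −2.49 to −0.48.

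The RNA controls also differed between the treatments. The 3′ to 5′ signal ratio of dap, a bacterial transcript used as a spike-in control, ranged from 6.56 to 8.60 under control conditions and from 2.66 to 5.94 under water stress, and the 36 probe sets for such spike-in transcripts had mean log2 signals of 8.16 to 8.63 in control samples and 8.59 to 9.47 in stressed ones. Actin, the reference transcript, was between 14.7 and 14.9 on the control arrays and between 14.8 and 15.1 on the stress arrays (log2 signal). The part of these differences in the lower signals of both enzymes was not tested. After subtracting the actin signal of each array the stress differences were −2.12 for ACT-1 and −3.83 for naringenin dioxygenase. In leaf RNA, fewer cells that express a transcript and less of it per cell cannot be told apart.

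Under water stress the genotypes did not differ detectably in either transcript. M minus WT was −0.17 (SE 0.35, 95% confidence interval −0.93 to 0.59) for ACT-1 with an adjusted p of 0.852 by limma. It was 0.46 (SE 1.03, 95% confidence interval −1.76 to 2.67) for naringenin dioxygenase with an adjusted p of 0.867 by limma. In this comparison 62 probe sets (0.252%) were called higher and 112 (0.455%) lower in M. These counts were 36 to 141 and 39 to 168 when each array was left out in turn, and by the methods' t-test 0 and 0, with 75 and 127 at an unadjusted p under 0.05 and 2-fold. Neither enzyme passed an unadjusted p under 0.05 by limma or by the methods' t-test. All 12 signals compared here were below the 60th percentile of their array, so a difference at such levels may not be detectable.

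**Figure D2:**
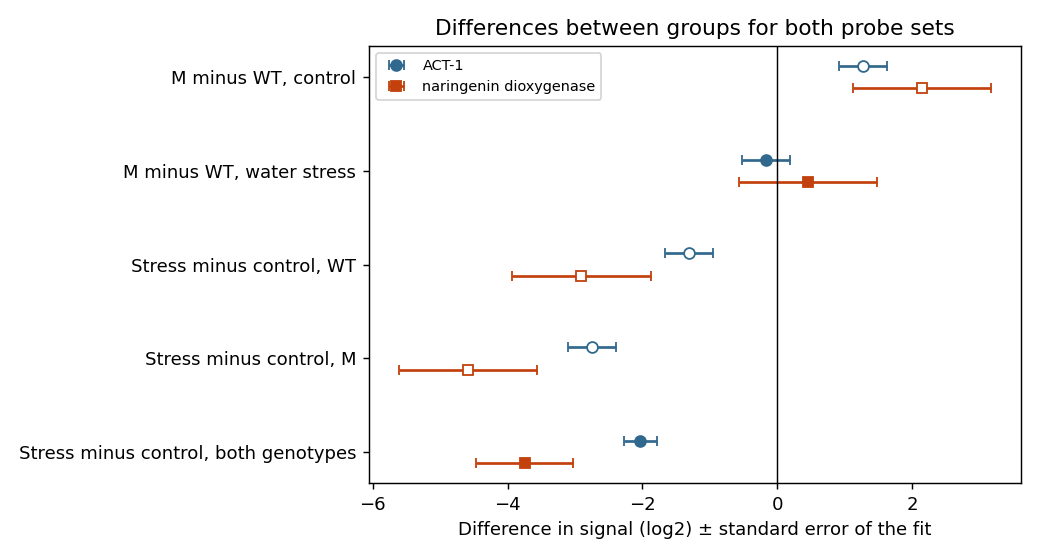
Differences in log2 signal (horizontal axis) ± standard error of the fit for ACT-1 and naringenin dioxygenase. Filled symbols are the tested comparisons and open symbols those that use the control difference by which the probe sets were chosen; the stress minus control values are −2.03 and −3.75, and M minus WT under water stress (−0.17 and 0.46) lies within 1 standard error of 0.

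The list from which both enzymes come held 21 other probe sets induced in M under control conditions, among them chitinases, glucanases and other pathogenesis-related proteins. Of these, 20 passed the filter, 3 of them through M control alone, where they had to be high. The study chose the list on these same arrays.

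Averaged over both genotypes, 14 of the 20 fell under water stress and 1 rose, beside 5.08% and 2.99% of all tested probe sets. The counts include the 3 that passed through M control alone. Others, such as a pathogenesis-related protein precursor and a germin-like protein, passed through both control groups and no stress group, and some, such as a chitinase, through all 4 groups. Passing through control groups alone favours a lower signal under stress, and its part in the counts was not tested. The median difference of the 20 was −2.05 on the log2 scale, ranging from −4.44 to 1.23, beside a median of 0.03 over all tested probe sets. ACT-1 at −2.03 was close to this median, and naringenin dioxygenase has no firm place, at −3.75 or −0.62 depending on how low signals are treated. A pathogenesis-related protein precursor had the lowest value, −4.44 (adjusted p 0.000274, limma). Chitinase 3, an enzyme that cleaves the chitin of fungal cell walls, fell by 2.55 (adjusted p 4.03e-06, limma), and GLP2b, a germin-like protein, fell by 3.35 (adjusted p 1.63e-06, limma). Blufensin1, in barley a small peptide that responds to powdery mildew, fell by 2.32 (adjusted p 3.10e-06, limma). The probe set that rose, Ta.3647.1.S1_at, is an uncharacterized protein with a difference of 1.23 (adjusted p 0.00211, limma), and its call was lost without WT water stress replicate 2, at 0.997. The call of a WRKY45-like transcription factor, −1.25, was lost without M water stress replicate 1 (−0.996, just under 2-fold), and a GII glucan endo-1,3-beta-glucosidase probe set, TaAffx.24475.1.S1_at, was gained without WT control replicate 1.

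Of all tested probe sets, 0.252% were called higher and 0.455% lower in M between the genotypes under water stress. Among these 20 probe sets 1 was called, and it was higher in M. This was GLP2b at 1.56 (adjusted p 0.0482, limma), and the call was lost when any of 9 of the 12 arrays was left out. Calls were gained for a proline-rich protein without WT water stress replicate 1 (1.74) or M water stress replicate 1 (1.70), for Ta.3647.1.S1_at without WT water stress replicate 2 (1.18), and for the unnamed Ta.3830.1.S1_a_at without WT control replicate 2 or 3 (1.10 each) or M water stress replicate 3 (1.24). The median of the 20 was 0.49, beside 0.01 over all tested probe sets. ACT-1 lay below 0 in this comparison, as did 4 of the 20, and naringenin dioxygenase lay at 0.46, close to the median. Neither place is firm, since the SE was 0.35 for ACT-1 and 1.03 for naringenin dioxygenase and neither sign was settled.

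Peroxidases are the enzymes that couple agmatine conjugates in barley, although the study's wheat peroxidases are not known to act on them. The study named 7 such probe sets in its tables, 2 of them in the list above. The others, and also Ta.30028.1.S1_s_at, are in a list of oxidative stress genes. The study chose these by their response to water stress on these arrays. Their stress differences are therefore given as values. Of the 7, 6 passed the filter, 3 of them through M control alone and TaAffx.613.2.A1_x_at through WT water stress alone, and each had to be high in that group. POX10 (Ta.16980.1.S1_at) had signals of 476 to 967 in M control and 159 to 184 in WT control, and 39.6 to 95.4 on the 6 stress arrays. All its control arrays were above all its stress arrays, as for ACT-1. Ta.30028.1.S1_s_at, which the study named both POX10 and peroxidase 12, had 274 to 523 in M control, 78.9 to 185 in WT control and 28.3 to 94.8 under stress, and its control and stress arrays overlapped.

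POX10 (Ta.16980.1.S1_at) fell by 2.34 under water stress (adjusted p 2.89e-05, limma). The differences of the others were −1.78 for Ta.30028.1.S1_s_at, −2.18 for TaAffx.39568.2.S1_at, −1.29 for Ta.21505.1.S1_at and −0.87 for Ta.30697.1.S1_at. TaAffx.613.2.A1_x_at differed the other way, by 3.08, with signals of 84.5 to 252 under stress against 5.62 to 56.7 under control conditions. The directions and sizes reflect how the study and the filter chose these probe sets, so no count of calls is read from them. The difference of Ta.30697.1.S1_at was −1.04 without WT water stress replicate 3 and −1.03 without M water stress replicate 1. Between the genotypes under water stress 0 of the 6 were called by limma, beside 0.252% higher and 0.455% lower of all tested probe sets. An unadjusted p under 0.05 by limma or by the methods' t-test was also reached by 0 of the 6.

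**Figure D3:**
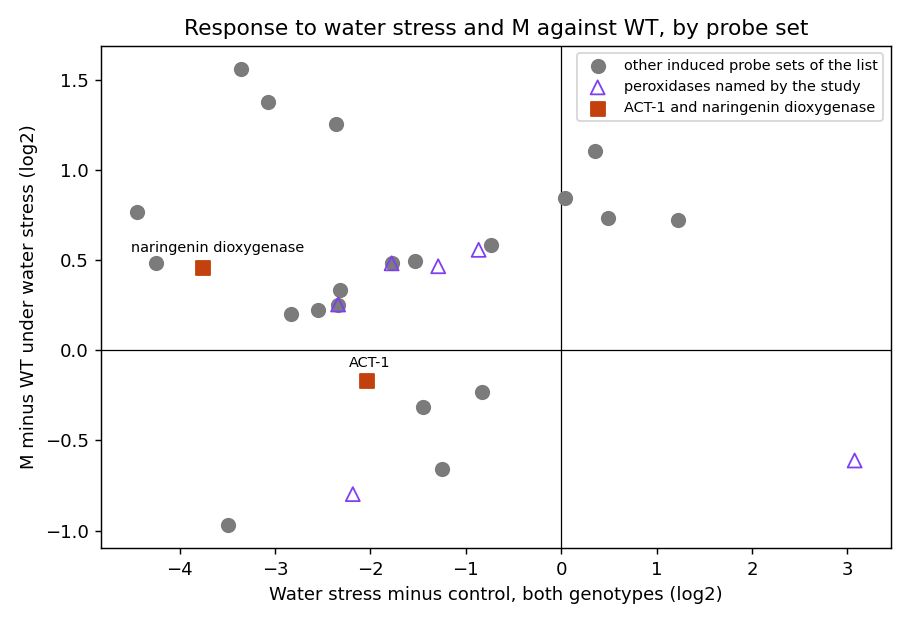
Each point is 1 tested probe set, with its difference between water stress and control averaged over genotypes (log2, horizontal axis) and between M and WT under water stress (log2, vertical axis); squares are ACT-1 and naringenin dioxygenase, circles the 20 other induced probe sets and open triangles the 6 peroxidases. Most points lie left of 0, and the triangle at 3.08 is the peroxidase probe set with a higher signal under stress. The axes share the stress arrays.

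Pearson's r between the log2 signals of both enzymes was 0.85 over the 12 arrays, which share the gap between treatments and between genotypes under control conditions. It was 0.81 within the 6 control arrays, which again share the genotype gap, 0.31 within the 6 stress arrays, and 0.22 after the group means were subtracted, where the low signals of naringenin dioxygenase under stress scatter most. M water stress replicate 1 had the lowest ACT-1 signal of its group, 48.1, but the highest naringenin dioxygenase signal, 27.5.

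**Figure D4:**
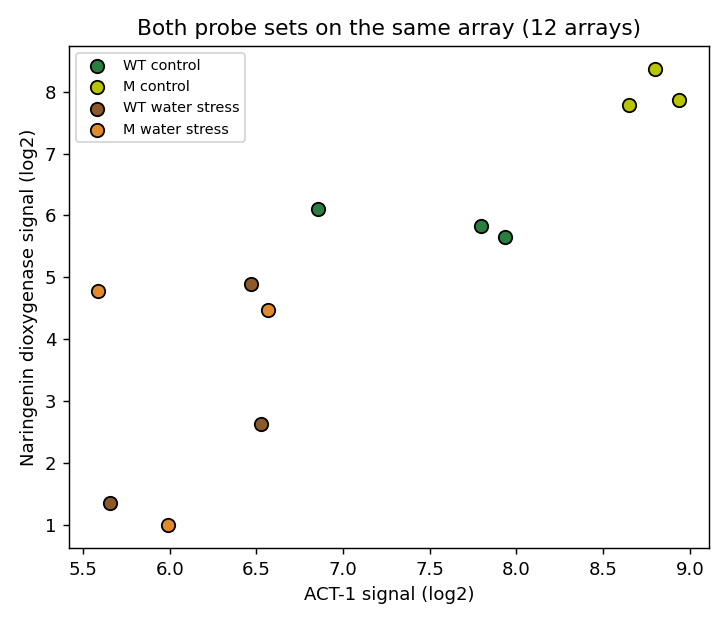
Log2 signal of ACT-1 (horizontal axis) against that of naringenin dioxygenase (vertical axis) on each of the 12 arrays, coloured by group. The M control arrays lie at the upper right (ACT-1 signals of 402 or more) and the stress arrays at the lower left, too few and too scattered to resolve an order among them (r = 0.31, n = 6).

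Many probe sets followed the treatment in the same way. Of the 24590 tested, 470 had an r with ACT-1 over the 12 arrays at least as high as naringenin dioxygenase did, and 194 had one with naringenin dioxygenase at least as high as ACT-1 did. The probe sets most like ACT-1 were Ta.1742.2.S1_at (r = 0.96) and Ta.19434.1.S1_a_at (r = 0.95), and those most like naringenin dioxygenase were Ta.24213.1.A1_at (r = 0.95) and Ta.24150.1.S1_at (r = 0.94), for none of which a name was found. The fifth on each list had r = 0.94 and r = 0.93. After the group means were subtracted, the most like were TaAffx.110629.2.S1_x_at for ACT-1 (r = 0.97) and TaAffx.18942.1.S1_at for naringenin dioxygenase (r = 0.97), also with no name.

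Among the 205 tested probe sets that the study's tables name, a group looked at after the values were known, Chitinase 3 (r = 0.92) and Blufensin1 (r = 0.90) were most like ACT-1. Both come from the same list as ACT-1. For naringenin dioxygenase these were APX1, an ascorbate peroxidase that detoxifies hydrogen peroxide (r = 0.89), and a beta-glucanase of the same list (r = 0.88), followed by the aquaporins PIP2;5 and PIP2;2 (r = 0.86 each). These values describe 12 arrays that share their groups and are given with no test.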

How the data were processed

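For 12 Affymetrix Wheat Genome Arrays the authors deposited MAS5 signals, linear intensities of 61290 probe sets with each array brought to the same trimmed mean. The version of MAS5 is not given in the sources used here, and detection calls and probe-level files were not used. Replicates are separate pools of plants. Intensities were log2 transformed without an offset, 111 control probe sets were left out, and a probe set was kept if some group had all 3 of its arrays above their 60th percentiles for it. The 4 group means were fitted with limma 3.58.1 (R 4.3.3) with an intensity trend, and the Benjamini-Hochberg adjustment covered all 24590 kept probe sets. The fit was tested on simulated data. The study itself used RMA values and Welch's test, which was run here on the deposited signals ("the methods' t-test").

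Both probe sets and all lists were chosen with earlier results of these data known. Named were both enzymes, probe sets of their array clusters, the members of the pathway lists and the study's peroxidases, and the probe sets with the highest Pearson r, of which only the first are printed; probe sets of the list they come from were named after their values were seen. Lists of hydroxycinnamic acid amide, flavonoid and lignin enzymes and of grain storage proteins could not be formed, since the annotation gives symbols for 1273 probe sets, 1254 of which are locus numbers. The 3 arrays per group limit the precision. Alternatives were quantile normalization, subtraction of actin, no filter, a filter on the mean signal that kept the top 40%, an offset of 32 before log2, a fit without the intensity trend, a fit to the compared groups alone, the methods' t-test, the replicate number as a block, array weights, and leaving out each array. Raising low signals to the 60th percentile of the array, and leaving out each array for the counts over lists, were added after the data were seen. The plots were made with matplotlib 3.10.9 in Python 3.11.15.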

Additional observations from a re-analysis of the deposited data

How the results depend on the processing

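Both enzymes stayed lower under water stress with an adjusted p under 0.05 in every alternative that gave them a value. For naringenin dioxygenase the floor does not count towards this, since its value there came from M alone and WT could not be measured. Except with no filter, its p-values follow a filter that it passed through M control alone. They are therefore not independent of how it entered the test. ACT-1 stayed past 2-fold in all 22, with differences from −2.20 to −1.47 and adjusted p-values from 1.77e-05 to 0.00523. Naringenin dioxygenase stayed past 2-fold in 20 of 21, and the exception was the floor at each array's 60th percentile (−0.62, adjusted p 0.00113, limma), under which 9 of its 12 arrays take the value of the floor. With log2 of the intensity plus 32 the differences were −1.65 for ACT-1 and −1.83 for naringenin dioxygenase. Leaving out each array gave −2.20 to −1.89 for ACT-1 and −4.23 to −3.14 for naringenin dioxygenase. Naringenin dioxygenase is not in the top 40% by mean signal, so that alternative gave no value for it.

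The comparison of M with WT under water stress had no settled sign. For ACT-1 it turned to 0.18 with array weights, to 0.15 with the floor and to 0.059 without M water stress replicate 1, and leaving out each array gave −0.45 to 0.059. For naringenin dioxygenase it turned to −0.35 without WT water stress replicate 1, −0.23 without M water stress replicate 1 and −0.07 without M water stress replicate 2, and the range was −0.35 to 1.67. Array weights gave 1.74 (adjusted p 0.154, limma). Adjusted p-values were 0.154 or more in all alternatives. The cause was not tested.

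Counts over all probe sets moved as follows. Between the genotypes under water stress, 25 were called higher after subtraction of actin and 40 without the intensity trend. With only the arrays of the groups compared 0 were called higher and 5 lower (203 and 247 at an unadjusted p under 0.05 and 2-fold, limma), and by the methods' t-test 0 and 0 (75 and 127). Array weights gave 199 higher and 280 lower, and leaving out each array 36 to 141 higher and 39 to 168 lower. Under water stress against control, 1180 were called higher with no filter, and leaving out each array gave 708 to 787 higher and 1163 to 1309 lower.

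Replicate numbers are shared by the groups, but deviations of same-numbered samples from their group means correlated between −0.19 and 0.09. The numbers were therefore not taken as pairs. Neither these correlations nor the replicate block give the variation between the main plots of the split plot design. With the replicate block the adjusted p under water stress against control was 0.000138 for ACT-1 and 0.00256 for naringenin dioxygenase (differences −2.03 and −3.75), and between genotypes under water stress 0.860 and 0.873, by limma, and no call of either enzyme changed.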
